A study of Mus musculus with 24 samples.

Results

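Lungs of mice that had received both diesel exhaust and ovalbumin were compared with lungs of mice that had received neither. The comparison rests on 8 of the 24 arrays of the study, 4 doubly treated and 4 doubly untreated, taken by their titles alone. Per the labels, the doubly treated mice breathed diesel exhaust at 2000 ug/m3 for 4 hours a day on 5 days and were given 100 ug of ovalbumin (OVA), an egg white protein used as a model allergen, for 3 days. The doubly untreated mice breathed filtered air on the same schedule and were given saline for 3 days. A group of 4 arrays with the exhaust and saline (exhaust alone) and a group of 4 with filtered air and OVA (OVA alone) supplied the 2 single effects, whose sum was set beside the combined effect. The remaining 8 arrays carried exhaust at 500 ug/m3 and entered no group mean compared here. They did enter the estimate of spread, the filter on low signal, the choice of each gene's probe set and the fits with covariates. The series title names a mouse model in which exhaust enhances sensitization to an allergen, and the design asks how the exposures act together. The sources used here do not give strain, sex, age, the route of OVA or the time from the last dose to collection. Nothing in the labels says that a group's 4 arrays came from different animals, so the p-values measure the spread between these samples, which may be technical.

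Whole lung RNA pools the airway and alveolar epithelium, the vessel wall, stroma and resident and recruited leukocytes. In bulk samples, fewer cells of a type and less RNA per cell cannot be told apart. Inhaled particles are known to draw neutrophils into the airways and to switch on secreted defence proteins of the epithelium, among them lipocalins, serum amyloids and Reg family lectins. An allergen given to a primed lung is known for type 2 cytokines, eosinophils and mucus. The lung also keeps a circadian clock, in which transcription factors of the PAS family drive the Per, Cry and Rev-erb genes, which feed back on them, and the PAR bZIP factors Dbp, Tef and Hlf carry the rhythm to other genes.

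Each value is a deposited intensity per probe set, called signal here, on the linear scale of the Affymetrix arrays. Differences are in log2 units ± standard error (SE) from limma, and a gene was called when its p-value, adjusted by Benjamini-Hochberg over all 13575 tested probe sets, was below 0.05. The 8 arrays carried the lung: surfactant protein Sftpc read 26781 to 38268, the club cell secretoglobin Scgb1a1 21421 to 32345, the alveolar type 1 marker Ager 10562 to 17896 and the endothelial cadherin Cdh5 3033 to 4947.

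The groups differed in measures of RNA quality. Control probe sets at the 3' and 5' ends of Gapdh and actin transcripts give a ratio that rises as RNA breaks or is copied incompletely. Its log2 value, averaged over both transcripts, was 1.72, 0.98, 2.90 and 1.36 in the doubly untreated arrays and 0.05, -0.13, 0.09 and 2.02 in the doubly treated ones. B1 is a short interspersed repeat of the mouse genome, and the signal of its control probe set was 12.83, 12.49, 13.35 and 12.83 against 11.06, 10.98, 10.85 and 12.43 on the log2 scale. The B1 groups did not overlap (exact permutation test, two-sided, p = 0.0286, the smallest that 4 against 4 arrays can give, and 0.114 adjusted over 4 measures), while the 3'/5' ratios overlapped through 1 array (exact p = 0.114). That array, the fourth doubly treated replicate, stood apart from its group. Its log2 signals correlated at 0.884 to 0.890 with the other 3 doubly treated arrays and at 0.923 to 0.934 with the doubly untreated ones. The OVA-alone arrays also had low ratios, at -0.03 to 0.20. Among the 500 ug/m3 arrays the ratio was -0.04 to 0.12 with OVA and 0.10 to 4.38 with saline. The quality measures thus moved with OVA in most arrays but not in all. All of these arrays entered the fits with covariates. Values are therefore given also with these measures as covariates and without the fourth doubly treated replicate, and the part of RNA quality in the results was not tested beyond those fits.

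**Figure D1:**
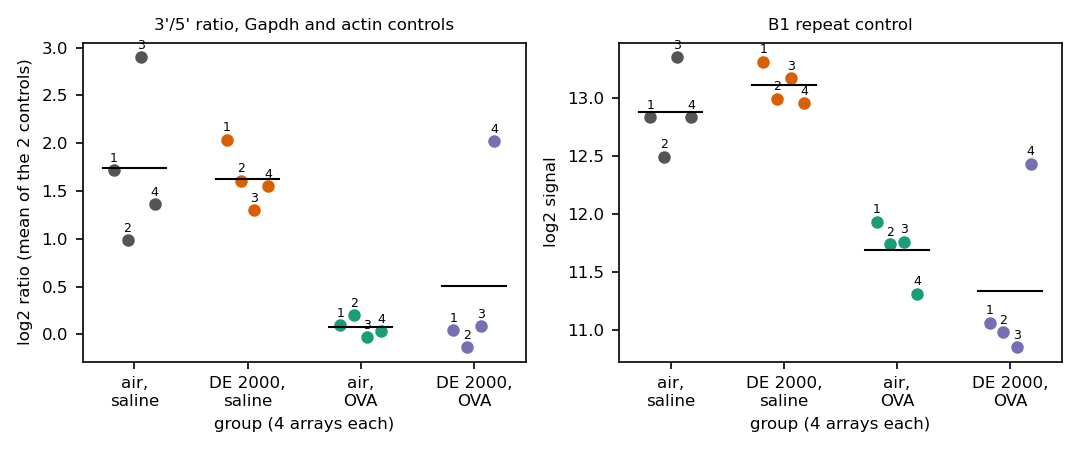
RNA quality measures of the 16 arrays of the 4 groups, each point 1 array labelled with its replicate number and each line a group mean. Left, the log2 3'/5' ratio averaged over the control transcripts; right, the log2 signal of the B1 control. Replicates 1 to 3 of the doubly treated group lie with the OVA-alone arrays at ratios between -0.13 and 0.09, and its replicate 4 lies at 2.02 with the saline arrays.

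Of 8315 tested genes, each represented by its brightest probe set, 327 were higher (3.93%) and 622 lower (7.48%) in the doubly treated lungs at a limma adjusted p below 0.05. The called differences had a median size of 0.67 on the log2 scale, and 54 of the higher and 97 of the lower genes differed by more than 1. The 4 against 4 signals did not overlap for 474 genes that were higher (5.7%) and 745 that were lower (8.96%). When the 3'/5' ratio entered the fit, 241 genes were higher (2.9%) and 500 lower (6.01%), and 188 and 403 of these were also called without it. When the B1 signal entered, 153 were higher (1.84%) and 299 lower (3.6%), of which 29 and 132 were shared. With both measures 0 were higher (0%) and 10 lower (0.12%), and 367 (4.41%) and 612 (7.36%) had an unadjusted limma p below 0.05. Of the 327 and 622 called genes, 319 and 603 kept their sign with both covariates. Without the fourth doubly treated replicate 585 genes were higher (7.04%) and 888 lower (10.7%), of which 307 and 571 were shared. Over probe sets the combined effect had 567 higher (4.18%) and 980 lower (7.22%). That total came to 805 without the third doubly untreated array, to 919 and 953 without the second or the third doubly treated array and to 991 without the first doubly untreated one.

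The largest rise with separate groups was that of Xdh, the xanthine dehydrogenase that ends purine breakdown and makes uric acid. Its signal was 102, 118, 157 and 176 in the doubly untreated lungs and 1395, 1783, 1088 and 1534 in the doubly treated ones, so the lowest treated array lay far above the highest untreated one. The difference was 3.40 ± 0.42, a 10.5-fold rise (limma adjusted p = 4.41e-05). The OVA-alone arrays read 518, 2187, 731 and 2123 and the exhaust-alone arrays 156, 111, 138 and 109, an effect of 3.09 with OVA and of -0.09 with exhaust. The rise was 3.51 with the 3'/5' covariate, 3.40 with B1 and 2.48 with both, where its adjusted p was 0.153.

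Tnxb, which encodes the matrix glycoprotein tenascin X, rose from 107, 181, 204 and 352 to 864, 790.3, 1078 and 1567. No array of one group reached the other, and the difference was 2.42 ± 0.35 (limma adjusted p = 0.000186). Lrp4, a receptor of the LDL receptor family, rose by 1.84 ± 0.32 and Pigt, a subunit of the enzyme that attaches GPI anchors, by 2.23 ± 0.53. Rab27b, a small GTPase of secretory vesicles, rose by 2.04 ± 0.47, Rab5c of early endosomes by 1.82 ± 0.45 and Rraga, which relays amino acid supply to mTORC1, by 1.67 ± 0.29. Snrpd3, a core protein of the spliceosome, rose by 1.81 ± 0.43 on its brightest probe set, while its other probe set read -0.08 and was not called. Rab5c owed its highest signal, 3318, to the fourth doubly treated array, without which the difference was 1.21, and it lost its call without the third doubly untreated array (adjusted p = 0.0515). Rab27b was at 1.28 without that same untreated array.

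Secreted defence and acute phase genes rose in part. Of the 18 listed, 9 passed the filter on low signal, all 9 had a combined effect above 0 and 3 of them rose (33.3%, against 3.93% of all genes), with a median of 0.64 against -0.04 over all genes. Reg3g, a lectin that kills Gram-positive bacteria, read 17.3, 189, 213 and 28.5 in the untreated and 531, 345, 588 and 787 in the treated arrays. The untreated arrays fell into a low and a higher pair, and all 4 treated arrays lay above both pairs. The difference was 3.02 ± 0.75 (limma adjusted p = 0.0122). Lcn2, the lipocalin that withholds iron from bacteria, rose from 954, 1066, 1236 and 719 to 1846, 1375, 2526 and 2098, again with no overlap. Its difference was 0.97 ± 0.18 (adjusted p = 0.0014), and 0.93 without the fourth treated array. Steap4, a metalloreductase induced by inflammation, rose by 0.95 ± 0.24 (adjusted p = 0.0138). Reg3g lost its call without the first untreated array (adjusted p = 0.0527).

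Pigr, the receptor that carries IgA across the epithelium, read 1168, 1034, 1208 and 960.4 in the untreated arrays and 1418, 1358, 1600 and 2702 in the treated ones. The groups did not overlap, but at 0.64 ± 0.22 the brightest probe set missed the call (adjusted p = 0.0567), while the gene's other probe set was called at 1.18 (adjusted p = 0.00261). Saa3, the serum amyloid A made in mouse lung, read 186, 180.2, 232 and 110.5 in the untreated arrays and 207, 106, 303 and 1302 in the treated ones. Only the fourth treated array was high, and the difference of 0.83 ± 0.48 (adjusted p = 0.272) was 0.14 without it. Cp, the copper carrier ceruloplasmin, showed the same array at 6571 over 3058, 2197 and 2291 in the others, and was at 0.47 ± 0.27 (adjusted p = 0.267). Of its 6 other probe sets 1 was called, at 0.68 (adjusted p = 0.0227). Haptoglobin, Hp, was at 0.04 ± 0.14. With the 3'/5' covariate 5 members were called, all higher, where 2.9% of all genes were. With both covariates 0 were called, with a median of 0.71.

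Cd177, a surface glycoprotein of neutrophils, was the only member of its marker list to be called (10% of those tested, against 3.93% of all genes). It read 155, 133, 182 and 96.6 in the untreated and 465, 217, 391 and 716 in the treated arrays, which did not overlap. The rise of 1.57 ± 0.30 (limma adjusted p = 0.00199) was 1.71 with the 3'/5' covariate, 1.99 with B1 and 2.06 with both (adjusted p = 0.0975). The other 9 tested members of the 16 neutrophil markers were not called, and the list's median was 0.16. The summed signal of the tested markers was 7140 to 8647 in the treated and 5700 to 8812 in the untreated arrays, which overlapped. With exhaust alone the same sum was 9362 to 15219 and with OVA alone 5869 to 7712. The defining granule genes Mpo and Elane lay below the filter.

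Among interferon-induced genes 2 of 23 rose (8.70%, against 3.93% of all genes) and none fell, with a median of 0.01. Both encode membrane proteins that block the entry of enveloped viruses. Ifitm1 read 2082, 1750, 2207 and 2308 in the untreated and 4236, 3493, 4243 and 5259 in the treated arrays, which were all higher. The difference was 1.04 ± 0.16 (limma adjusted p = 0.000291). Ifitm2 rose by 0.49 ± 0.10 (adjusted p = 0.00259), with separate groups. The other 21 members were not called, and the largest of their differences was that of Ifit2 at 0.46. Both Ifitm genes held their calls with either covariate alone and lost them with both, at 0.94 and 0.53.

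Genes of macrophages and their growth factors rose in part. Csf1, the growth factor of macrophages, read 382, 471, 463 and 497 in the untreated arrays and 801, 874, 712 and 759 in the treated ones without overlap. It rose by 0.80 ± 0.15 (limma adjusted p = 0.00183) on its brightest probe set, while its other 2 probe sets read 0.01 and -0.13. Ccl6, a chemokine of macrophages, rose by 0.57 ± 0.15, and these were the only 2 called of 15 tested cytokines and chemokines (13.3%, against 3.93% of all genes). A second probe set of Ccl6 was called at 1.25. Without the fourth treated array 4 were called, with Ccl9 at 0.57 (adjusted p = 0.0279) and Ccl8 at 0.48 (adjusted p = 0.0451), and with B1 none was. Over all genes 7.04% were higher without that array and 1.84% with B1. Of 8 tested monocyte and interstitial macrophage markers 2 rose (25.0%, against 3.93%): Cd14, the endotoxin co-receptor, by 0.58 ± 0.13 and Adgre1, which encodes F4/80, by 0.56 ± 0.17. Adgre1 lost its call with the 3'/5' covariate, at 0.46 (adjusted p = 0.0882), which left 1 of the 8. In that fit Csf1 was at 0.70 and Cd14 at 0.56, and with both covariates 0.92 and 0.82, where none of the 4 genes was called. None of 12 alveolar macrophage markers and none of 8 dendritic cell and class II genes was called. Leaving out the fourth treated array called Ctsk at 0.63 (adjusted p = 0.019), Cd68 at 0.78 (adjusted p = 0.0307) and H2-Aa at 0.60 (adjusted p = 0.0109). Ccl6 lost its call without the first treated array (adjusted p = 0.0521). Adgre1 lost its call without any of 5 arrays (untreated 2 to 4 and treated 2 and 3), at adjusted p up to 0.0995.

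Markers of an allergic response were mostly below the filter or not called. Of 23 listed type 2 genes 7 passed the filter and 1 rose (14.3%, against 3.93% of all genes). This was Retnla, a resistin-like protein of the alveolar epithelium and macrophages, which read 1220, 1452, 2264 and 1144 in the untreated arrays and 2479, 2679, 2350 and 2209 in the treated ones. Its single effects were 0.96 with exhaust alone and -0.03 with OVA alone. The third untreated array reached into the treated range, and the difference of 0.73 ± 0.21 (limma adjusted p = 0.0291) lost its call without any of 6 arrays (all but the third untreated and the fourth treated one), at adjusted p up to 0.0903. Chil3, a chitinase-like protein of alveolar macrophages, was at 0.23 ± 0.16 (adjusted p = 0.384). Il4, Il13, Ccl11, Clca1 and Muc5ac lay below the filter and were not tested, and the mucin Muc5b was at -0.16 ± 0.26 (adjusted p = 0.734). The eosinophil genes Epx, Prg2 and Siglecf lay below the filter, so 2 of the 13 eosinophil and mast cell markers were tested and none was called. Of those 2 the mast cell receptor Kit was called with the 3'/5' covariate, at -0.52 (adjusted p = 0.0256). J chain, which links IgA and IgM, was at -0.18 ± 0.18. Of 10 B and plasma cell markers 1 rose (10%, against 3.93% of all genes), the secretory cell factor Xbp1, by 0.39 ± 0.11. The other 9 lay below 0, and the list's median was -0.18. Igha, the lowest of them, was at -0.75 ± 0.25 and was not called (limma adjusted p = 0.055). Without the fourth treated array Igha was called at -0.84 (adjusted p = 0.0344). Another probe set of Xbp1 was called at 1.08, and the brightest lost its call without the first untreated or the third treated array (adjusted p up to 0.0916).

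**Figure D2:**
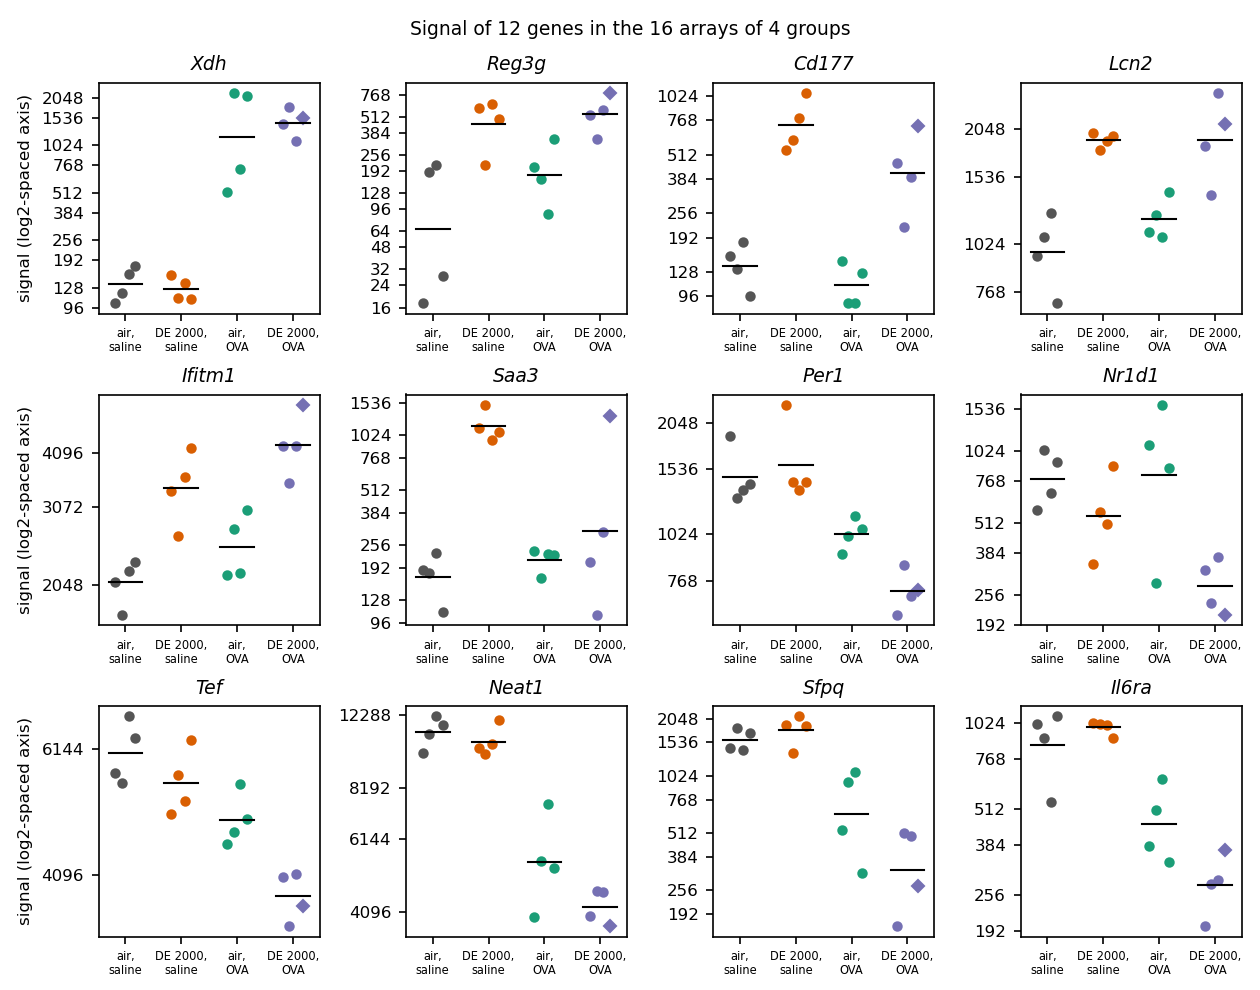
Signal of 12 genes in the 16 arrays of 4 groups on a log2-spaced axis. Each point is 1 array, each line the geometric mean of a group, and the diamond is the fourth doubly treated replicate. Xdh is high in both OVA groups, Cd177 and Saa3 are highest with exhaust alone, and Per1, Tef and Nr1d1 are lowest with both treatments.

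Oxidant defence genes rose in a small part. Of 26 tested NRF2 targets and glutathione genes 5 were higher (19.2%, against 3.93% of all genes) and none lower, with a median of 0.06. Gsr, which regenerates glutathione, read 431, 449.5, 399 and 512 in the untreated arrays and 671, 671, 752 and 661 in the treated ones without overlap, a rise of 0.62 ± 0.17 (limma adjusted p = 0.0216). The glutathione transferases Gsta3 and Gstt1 rose by 1.08 ± 0.27 and 0.62 ± 0.16, and thioredoxin, Txn1, by 0.40 ± 0.10. Fth1, the ferritin heavy chain that stores iron and was named after its values were seen, rose by 0.59 ± 0.18 and was at -0.07 with the B1 covariate, and its other probe set was called at 0.56. The summed signal of the list was 75695 to 86233 in the treated and 64563 to 68977 in the untreated arrays. The glutathione synthesis subunit Gclc was at 0.08 ± 0.19 (adjusted p = 0.816). Haem oxygenase, Hmox1, was at -0.23 ± 0.47 (adjusted p = 0.797) and the fourth treated array alone was low, at 29.3 against 182 to 218 in the others. The metallothioneins Mt1 and Mt2, which bind zinc and copper, were at -0.21 ± 0.26 and -0.21 ± 0.22. Nqo1 lay below the filter. Without the fourth treated array 6 were higher and 2 lower, the synthesis subunit Gclm at -0.87 (adjusted p = 0.0246) and Pgd at -0.63 (adjusted p = 0.0414). Over all genes 7.04% were higher and 10.7% lower in that fit. Called members, all higher, numbered 4 with the 3'/5' covariate, 1 with B1 and 0 with both. The shares of all genes higher in those fits were 2.9%, 1.84% and 0%. Gsta3 lost its call without the third untreated or second treated array (adjusted p up to 0.0574), Gsr without untreated replicate 1 or 3 or treated replicate 3 (up to 0.0701) and Fth1 without any of 5 arrays (the first and the third untreated and treated replicates 1 to 3, up to 0.115).

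Of the tested genes of the aryl hydrocarbon receptor, which binds polycyclic hydrocarbons, the receptor was called and no target was with all 8 arrays. Cyp1a1, the classic target, read 276, 234, 246 and 323 in the untreated arrays and 304, 479.7, 199.5 and 326 in the treated ones, which overlapped, and was at 0.22 ± 0.28 (limma adjusted p = 0.648). Cyp1b1 was at 0.19 ± 0.20 (adjusted p = 0.565). The receptor itself, Ahr, rose from 1447, 1518, 1006 and 1174 to 1933, 2155, 2576 and 1781, by 0.72 ± 0.17 (adjusted p = 0.00919), and was the only 1 called of 9 tested genes (11.1%, against 3.93% higher among all genes). Without the fourth treated array Arnt, its partner, was called higher at 1.22 (adjusted p = 0.0474) and the target Cyp2s1 lower at -0.58 (adjusted p = 0.0261). With the B1 covariate Ahr was at 0.37 (adjusted p = 0.304). Its other probe set read 0.53 without a covariate and was not called (adjusted p = 0.137).

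Mitochondrial and sterol genes held few calls. Of 28 tested genes of fatty acid oxidation and the tricarboxylic acid cycle 6 rose (21.4%, against 3.93% of all genes) and 1 fell (3.57%, against 7.48%), with a median of 0.08. Idh3a, a subunit of isocitrate dehydrogenase, read 651, 629, 452 and 628 in the untreated arrays and 1220, 1280, 1266 and 823 in the treated ones and rose by 0.95 ± 0.22 (limma adjusted p = 0.00775). Its other probe set read 0.17 and was not called. Etfdh, which passes electrons from fat oxidation to ubiquinone, rose by 0.93 ± 0.23, and Hadhb of the trifunctional protein by 0.43 ± 0.13. Of 30 oxidative phosphorylation genes 2 rose (6.67%, against 3.93%), the succinate dehydrogenase subunits Sdhd and Sdhb, by 0.91 ± 0.22 and 0.40 ± 0.13. Of 20 sterol and lipid synthesis genes 2 rose (10%, against 3.93%): Fdps, which makes farnesyl diphosphate, by 1.22 ± 0.23 and Nsdhl by 0.61 ± 0.13. The fourth treated array was the lowest of its group for Fdps, at 497, and for Idh3a, at 823. Of the 28 oxidation and cycle genes 3 were higher and 1 lower with the 3'/5' covariate, 1 and 0 with B1 and none with both. Of the 30 oxidative phosphorylation genes 5 were higher with the 3'/5' covariate and 6 with B1. The sterol list had 3 of 20 lower with B1. Over all genes 2.9% were higher and 6.01% lower with the 3'/5' covariate, and 1.84% and 3.6% with B1. With B1 as a covariate Fdps was at 0.41 and Idh3a at 0.11, neither called. Sdhb lost its call without any of 5 arrays (adjusted p up to 0.124: untreated 1, 2 and 4, treated 2 and 3). Hadhb lost it without untreated 1 or 3 or treated 3 (up to 0.123, at 0.26 without the last), and its other probe set read 0.09.

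The splicing and nuclear RNA list held more falls than any other list tested. Of 35 tested members 13 fell (37.1%, against 7.48% of all genes) and 1 rose, and the median was -0.39. Neat1, the long noncoding RNA around which paraspeckles form, read 9926, 11050, 12164 and 11580 in the untreated and 3998, 4597, 4577 and 3787 in the treated arrays, and all treated arrays lay below all untreated ones. The difference was -1.40 ± 0.16 (limma adjusted p = 2.94e-05), and it was -1.41 with the 3'/5' covariate, -1.41 with B1 and -1.32 with both (adjusted p = 0.063). Malat1, its neighbouring nuclear RNA, named after its values were seen, fell from 7414, 8712, 5701 and 9957 to 1927, 4786, 2674 and 3168, a difference of -1.39 ± 0.26. The splicing factors Rbm25 and Srrm1 fell as well (-1.09 ± 0.17 and -0.92 ± 0.15). The only rise was that of the splicing regulator Tra2b, at 0.64. Under the 3'/5' covariate 13 members were lower, with B1 11, with both 0 and without the fourth treated array 14. Over all genes the shares lower in these fits were 6.01%, 3.6%, 0.12% and 10.7%.

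Sfpq, the splicing protein that binds Neat1, fell from 1428, 1820, 1402 and 1728 to 166, 512, 492 and 268. At -2.28 ± 0.38 (limma adjusted p = 0.000584) it was among the 10 largest falls with separate groups, but the gene's other 3 probe sets read 0.36, -0.10 and -0.51 and none was called. The probe sets of a gene disagreed for other large falls too. Fubp1, a protein that binds single-stranded DNA and RNA, fell by 1.93 ± 0.28 on one and read 0.11 on the other. Arhgap31, which switches off Cdc42 and Rac, fell by 1.91 ± 0.23 and read 0.50, and Il6ra, the chain that binds interleukin 6, fell by 1.62 ± 0.29 and read 0.05. Brwd1, a bromodomain protein, fell by 2.01 ± 0.45 and read -0.14 and -0.06, and Rbm25 read -0.08 on its second. None of these second probe sets was called, and Srrm1 was called on 2 of its 4, at -0.92 and -2.73. The remaining falls among the 10 largest were Wdtc1 at -2.46 ± 0.46, Phxr4 at -2.41 ± 0.61, Dennd1a at -2.11 ± 0.42, the repressor Zbtb20 at -1.77 ± 0.33 and Leng8 at -1.68 ± 0.29. Phxr4 lost its call without the third treated array (adjusted p = 0.051).

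A set of circadian clock genes fell. Of 19 listed genes 13 passed the filter, 7 fell (53.9%, against 7.48% of all genes), none rose, and the groups did not overlap for any of the 7 (8.96% of all genes were lower without overlap). The list's median was -0.66, and its summed signal was 10930 to 11448 in the treated and 16541 to 18956 in the untreated arrays. The sequences before 3 start sites are shown because clock factors are known to act through the E-box, searched as CACGTG, and the D-box, searched as TTANGNAA. Of the 9 windows of 250 bases that RefSeq (GRCm38.p6) gives for the 7 genes, the E-box was found on either strand in 3 windows, of Per1 and Tef, and the D-box in 2, of Per1 and Per3. Over 32851 promoters of the same length 6.02% held the E-box letters and 10.3% the D-box letters. The E-box lay 166 bases before the start in Per1 and 127 in Tef. The D-box lay 24 bases before the start in Per1 and 205 and 158 in Per3, and no matches overlapped. The windows of Cry2, Nr1d1, Dbp and Hlf held neither, which says only that these letters are not in those windows. The motifs are in capitals, 5' to 3' on the gene's strand, for Per1 at chr11:69098699-69098948 (plus strand), Per3 at chr4:151044666-151044915 (minus strand) and Tef at chr15:81802423-81802672 (plus strand).
Per1: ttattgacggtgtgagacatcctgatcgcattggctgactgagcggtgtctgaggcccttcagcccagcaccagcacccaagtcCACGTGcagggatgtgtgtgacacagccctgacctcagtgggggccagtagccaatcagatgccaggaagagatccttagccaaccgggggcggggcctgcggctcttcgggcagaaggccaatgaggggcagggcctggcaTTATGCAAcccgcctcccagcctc
Per3: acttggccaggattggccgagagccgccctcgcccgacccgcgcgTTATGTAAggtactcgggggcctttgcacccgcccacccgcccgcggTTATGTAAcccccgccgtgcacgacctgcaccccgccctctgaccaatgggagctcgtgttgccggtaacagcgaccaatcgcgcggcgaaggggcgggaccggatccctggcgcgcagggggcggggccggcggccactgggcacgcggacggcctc
Tef: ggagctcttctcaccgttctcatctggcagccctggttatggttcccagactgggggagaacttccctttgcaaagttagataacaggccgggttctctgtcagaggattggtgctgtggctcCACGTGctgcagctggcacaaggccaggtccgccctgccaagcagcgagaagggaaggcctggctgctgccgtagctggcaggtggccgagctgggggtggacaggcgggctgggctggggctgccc

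Per1, a repressor of the loop with both motifs above, read 1887, 1284, 1345 and 1400 in the untreated and 621, 844, 699 and 727 in the treated arrays. The highest treated array lay below the lowest untreated one, and the difference was -1.02 ± 0.16 (limma adjusted p = 0.000291). Tef, an output factor that binds the D-box, read 5687, 5514, 6828 and 6380 in the untreated arrays and 4078, 3476, 4114 and 3708 in the treated ones. Its difference of -0.66 ± 0.10 (adjusted p = 0.000312) was also seen on a second probe set, at -1.44 (adjusted p = 0.0069), while another read 1.05 and was not called. Nr1d1, the repressor Rev-erb alpha, fell from 580.2, 1035, 682 and 919 to 326, 237, 371 and 212. At -1.49 ± 0.41 (adjusted p = 0.0215) it lost its call without the second untreated or second treated array (adjusted p up to 0.0597).

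Hlf, another PAR bZIP factor, fell by 1.05 ± 0.20 on its brightest probe set and read 0.15 on its other. The repressor Cry2 fell from 598, 559, 632 and 621 to 283, 260.3, 274 and 470.1, a difference of -0.95 ± 0.19, which was -1.14 without the fourth treated array, which was its highest. Per3, whose window holds the D-box pair and which was named after its values were seen, fell by 0.77 ± 0.17, with a second probe set at 0.15. Dbp fell by 1.06 ± 0.32 (limma adjusted p = 0.035) and read -0.89 on its second probe set. Its call was lost without any of 5 arrays (untreated 1 to 3, treated 1 and 2), at adjusted p up to 0.122, and with the 3'/5' covariate (0.0729). The activator Clock was at -0.05 and Per2, Cry1, Nr1d2, Rora and Bhlhe40 were between -0.46 and 0.08, none called. Arntl, Npas2, Nfil3 and Bhlhe41 lay below the filter. With the 3'/5' covariate 6 of the 7 were lower, with B1 4, with both 0, at a median of -0.61, and without the fourth treated array 7. Over all genes the shares lower in these fits were 6.01%, 3.6%, 0.12% and 10.7%. The labels give no hour of collection, so its part was not tested.

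**Figure D3:**
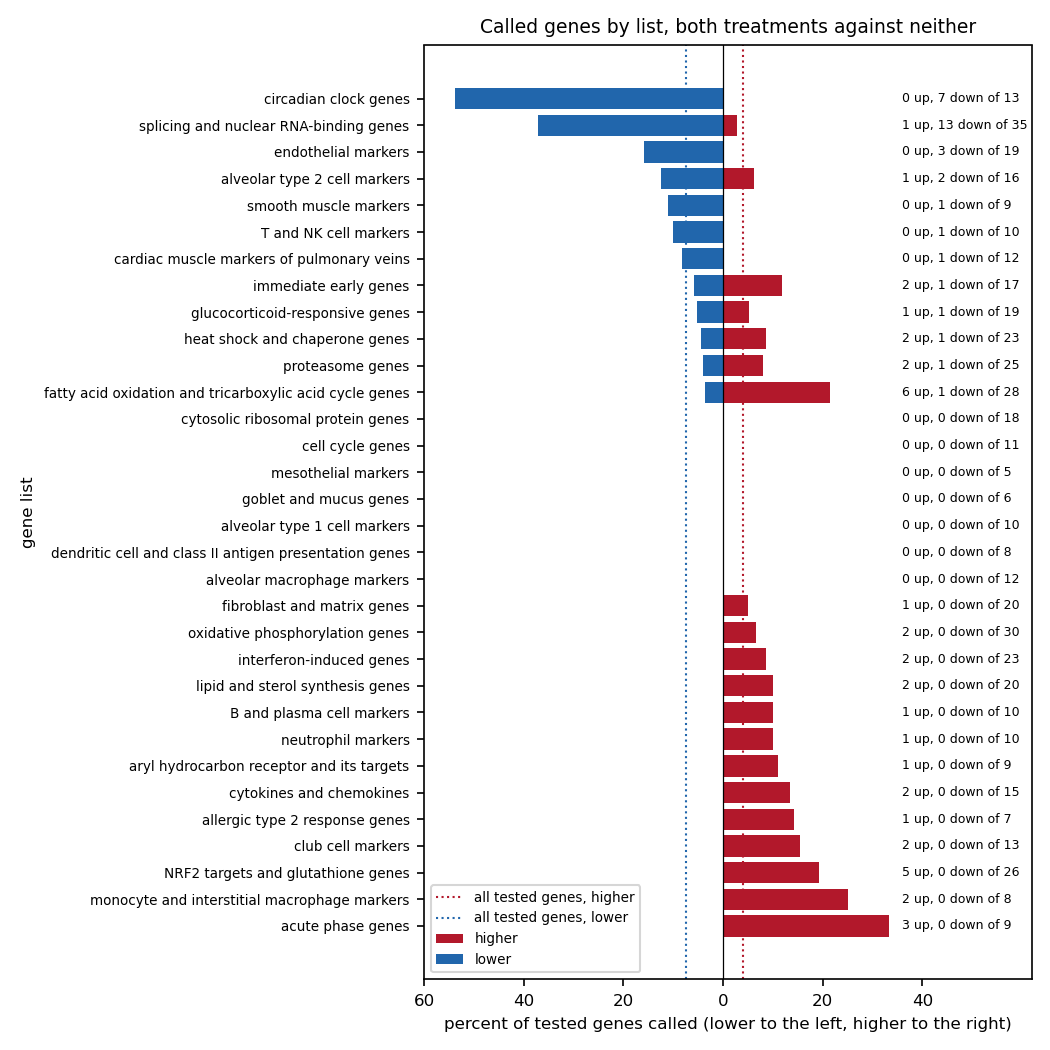
Percent of tested genes of each list that were called higher (right) or lower (left) in the doubly treated against the doubly untreated lungs, for lists with 5 or more tested genes. Dotted lines are the shares of all genes, 3.93% higher and 7.48% lower. The clock list has 7 of 13 lower and the acute phase list 3 of 9 higher.

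Cell type markers were called in small numbers. Of 19 endothelial markers 3 fell (15.8%, against 7.48% of all genes) and none rose. Without the fourth treated array 1 fell and 2 rose, the endothelin receptor Ednrb at 1.03 (adjusted p = 0.0185) and Emcn at 0.90 (adjusted p = 0.0451). In that fit 10.7% of all genes were lower and 7.04% higher. Vwf, the von Willebrand factor of the vessel wall, read 3033, 3020, 4065 and 3056 in the untreated arrays and 1958, 1568, 2114 and 2632 in the treated ones without overlap and fell by 0.68 ± 0.14 (limma adjusted p = 0.00393). Plvap, of endothelial diaphragms, and the secreted factor Egfl7 also fell (-0.53 ± 0.16 and -0.55 ± 0.18), while Cdh5 and Kdr were at -0.18 and -0.07. Under the 3'/5' covariate 1 of the 3 was called. Plvap and Egfl7 lost their calls without the fourth treated array (adjusted p = 0.0609 and 0.0829). Each also lost it without other single arrays: Plvap without untreated 1 to 3 or treated 2, and Egfl7 without untreated 1, 3 or 4 or treated 1 to 3, with a fall of 0.34 without untreated 3. Of the 3 other probe sets of Egfl7, 2 were called at -0.96 and -0.66 (adjusted p = 0.0118 and 0.0177), also with the 3'/5' covariate (0.0303 and 0.0439). Among 16 alveolar type 2 markers 1 rose (6.25%, against 3.93% of all genes), the chitinase-like Chil1 by 0.53 ± 0.13. The falls were 2 (12.5%, against 7.48%), the surfactant lipid enzyme Lpcat1 (-0.43 ± 0.11) and complement Hc (-0.52 ± 0.14). Of 13 club cell markers Gabrp rose by 0.68 ± 0.21 beside Gsta3 (15.4%, against 3.93%). Of 20 fibroblast genes Tcf21, a factor of lipofibroblasts, rose by 0.69 ± 0.18 (5%, against 3.93%). In that list 10 genes lay above 0 and 10 below, with Col1a1 lowest at -0.99 ± 0.34, not called (adjusted p = 0.0634). The 3'/5' covariate gave 1 higher and 2 lower, Col1a1 at -1.24 (adjusted p = 0.0194) and Col6a3 at -0.51 (adjusted p = 0.0482). Leaving out the fourth treated array also gave 1 higher and 2 lower, Bgn at -0.45 and Col6a1 at -0.40 (adjusted p = 0.0127 and 0.0193). The smooth muscle gene Smtn (-0.43 ± 0.14), the cardiac myosin Myh7 (-0.70 ± 0.22) and the natural killer receptor Klrd1 (-0.55 ± 0.17) each fell as the single call of their lists on brightest probe sets. These calls were 11.1%, 8.33% and 10% of the tested genes of their lists, against 7.48% of all genes. Of the 9 smooth muscle genes 7 lay above 0, at a median of 0.17, while 9 of 12 cardiac and 6 of 10 T and NK genes lay below 0. Another probe set of the cardiac gene Pln was called higher at 1.01 (adjusted p = 0.0462), but not with the 3'/5' covariate (0.129). Chil1 lost its call without the third treated, Lpcat1 without the third untreated and Tcf21 without the second treated array (adjusted p = 0.0526, 0.0615 and 0.0506). Hc, Gabrp, Smtn, Myh7 and Klrd1 lost theirs without 3 or more single arrays each, any of the 8 except the fourth treated one. No alveolar type 1, ciliated, goblet, mesothelial, red cell or fat marker was called on its brightest probe set. Another probe set of the mesothelial marker Gpm6a was called at 1.16 (adjusted p = 0.0472), but not with the 3'/5' covariate (0.0978). Without the fourth treated array the red cell marker Bpgm was called at 1.12 (adjusted p = 0.0242) and the fat marker Plin4 at -0.95 (adjusted p = 0.0132).

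Stress and signalling lists held few calls, where 3.93% of all genes were higher and 7.48% lower. Of 23 heat shock and chaperone genes 2 rose (8.70%). These were Pdia4 of the endoplasmic reticulum, by 0.94 ± 0.29, and Dnajb4, by 0.59 ± 0.18. The co-chaperone Bag3 fell by 0.65 ± 0.18 (4.35% of the list). Of 17 immediate early genes Ier5 rose by 0.57 ± 0.17, the matricellular Ccn1 rose by 0.47 ± 0.15 and Jund fell by 0.47 ± 0.15. That was 11.8% higher and 5.88% lower. Of 25 proteasome genes Psma2 and Psmd12 rose by 0.46 ± 0.14 and 0.41 ± 0.13 (8%) and the ATPase Psmc5 fell by 0.66 ± 0.20 (4%). None of these 9 kept its call with the 3'/5' covariate. Jun was not called on its brightest probe set, but another of its probe sets was, at 2.01 (adjusted p = 0.00051). That probe set was also called with the 3'/5' covariate, at 1.69 (adjusted p = 0.00077). Of 19 glucocorticoid-responsive genes Lcn2 rose and Per1 fell (5.26% each). None of 11 cell cycle and 18 ribosomal protein genes was called on its brightest probe set. Another probe set of the ribosomal protein gene Rps24 was called at -1.22 (adjusted p = 0.00155). Without the fourth treated array 5 glucocorticoid-responsive genes were lower, among them Cebpd at -0.93 (adjusted p = 0.00503) and Klf9 at -0.62 (adjusted p = 0.0199), and the cell cycle genes Pcna and Mcm2 were called at 0.72 and -1.32. With all arrays the other probe sets of Klf9 read 0.29, 0.07, -0.55, 0.05 and 1.95 and that of Mcm2 0.29, none called. Leaving out the fourth treated array also gave 4 higher and 0 lower proteasome genes, 3 and 2 heat shock genes and 3 and 1 immediate early genes. Of all genes 7.04% were higher and 10.7% lower in that fit. The largest differences called without a covariate but not with the 3'/5' ratio were the rises of the RNA-binding protein Raly by 1.30 ± 0.36, the dehydrogenase subunit Dld by 1.07 ± 0.31, the claudin Cldn4 by 1.05 ± 0.31, the integrin beta chain Itgb2 of leukocytes by 0.99 ± 0.32 and Myo1h by 0.98 ± 0.29. On the falling side they were Ahi1 of the cilium (-1.47 ± 0.40), Tprkb (-1.34 ± 0.36, with a second probe set at -0.06), Dbp, the leukocyte Rac activator Dock2 (-1.02 ± 0.30) and the RNA-editing enzyme Adarb1 (-0.94 ± 0.28). Each of these genes and of the 9 stress genes lost its call without 1 or more single arrays, and each of the 8 arrays ended 1 or more of the calls. Without the third treated array Ahi1 was at -0.97 and Tprkb at -0.73.

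**Figure D4:**
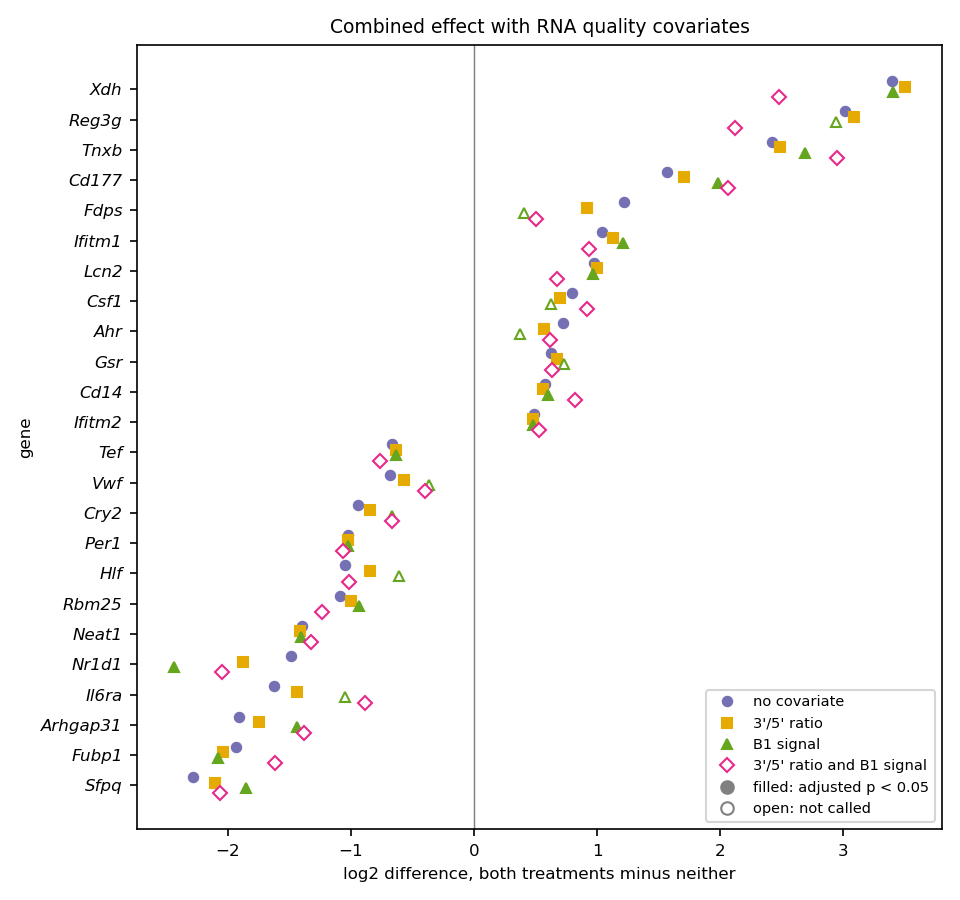
Combined effect of 24 genes in log2 units without a covariate, with the 3'/5' ratio, with the B1 signal and with both. Filled symbols have a limma adjusted p below 0.05 and open symbols do not. All 24 are open with both covariates, and Nr1d1 moves from -1.49 to -2.05 while Fdps moves from 1.22 to 0.51.

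The combined effect was then set beside the sum of the 2 single effects, all 3 being measured against the same doubly untreated arrays. The departure from the sum was called for no gene (0 of 8315, 0%; 446 genes, 5.36%, had an unadjusted p below 0.05 in limma, of which 283, 3.4%, lay below 0, and the 60th percentile filter and no filter also gave 0 calls). Its median SE was 0.26 against 0.18 for the combined effect, and the median 95% interval, not adjusted for the number of tests, reached 0.54 to either side. For a typical gene, departures within that width could not be told from 0 with 4 arrays a group, even before adjustment. A call needed the adjusted p, so much larger departures were missed too. Tbx4 at -1.26 and Saa3 at -2.21, both described below, were not called (limma adjusted p = 0.0852 and 0.483). The 0 calls therefore do not limit departures to about 0.54. The B1 covariate gave 181 called probe sets and leaving out the fourth doubly untreated array 64, of which 63 were below 0.

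Genes differed in which single effect their combined value resembled. Xdh was at -0.09 with exhaust and 3.09 with OVA, a sum of 2.99 ± 0.73 beside a combined 3.40 ± 0.42. Cd177 was at 2.39 with exhaust and -0.33 with OVA, a sum of 2.06 ± 0.52 beside 1.57 ± 0.30. Ifitm1 was at 0.71 and 0.27, a sum of 0.98 ± 0.27 beside 1.04 ± 0.16. For these 3 the departure was 0.40 ± 0.60, -0.49 ± 0.43 and 0.06 ± 0.22, none of them called. Pigr had single effects of opposite sign, 1.43 with exhaust and -0.92 with OVA, which summed to 0.51 ± 0.38 beside 0.64 ± 0.22.

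Several defence genes lay below their sums, none called with all arrays and no covariate. Saa3 read 1111, 1490, 956 and 1066 with exhaust alone and 236, 169, 229 and 225 with OVA alone, against 207, 106, 303 and 1302 with both. All 4 exhaust arrays were high and of the doubly treated arrays only the fourth was. The sum was 3.05 ± 0.84, the combined effect 0.83 ± 0.48 and the departure -2.21 ± 0.68 (limma adjusted p = 0.483). With the 3'/5' covariate and without the fourth treated array the departure was -2.92 and called (adjusted p = 0.00638). Reg3g summed to 4.19 ± 1.29 beside 3.02 ± 0.75. The neutrophil markers had a median sum of 0.69 beside a combined median of 0.16, and 9 of 10 had a departure below 0 (49.8% of all genes did). The calprotectin genes S100a8 and S100a9, named after their values were seen, departed by -1.11 ± 0.44 and -0.98 ± 0.46 (unadjusted p = 0.0201 and 0.0429, adjusted 0.734 and 0.81), and Csf3r, the receptor of the neutrophil growth factor, by -1.15 ± 0.49. S100a8 read 2613, 4485, 1665 and 1762 with exhaust alone and 1707, 988, 1247 and 1057 with both.

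The smallest p among genes belonged to Tbx4, a transcription factor of lung mesenchyme. It read 1081, 927, 943 and 820.1 with exhaust alone, 765, 652, 827 and 760.2 with OVA alone, 634, 685, 506 and 382 with both and 516, 560.1, 476 and 648 with neither. Both single treatments were above the untreated arrays on average, at 0.78 and 0.45, and the combination was at -0.02 ± 0.15. The departure of -1.26 ± 0.22 (limma adjusted p = 0.0852) was called in 7 of 30 other fits: with array weights, with 1 probe set per gene, with the 3'/5' covariate (also without the fourth treated array), with B1, and without the fourth untreated or second treated array. It was followed by Wdfy3, an autophagy adaptor, at -1.52 ± 0.34, Pgap2 of GPI anchors at -1.33 ± 0.31, the helicase Ddx10 at -0.98 ± 0.23 and Zfp109 at -0.99 ± 0.25, with adjusted p from 0.297 to 0.363. Wdfy3 and Pgap2 were called with B1 and without the fourth untreated array. Other probe sets departed by 1.03 and -0.28 for Pgap2 and by 0.09 for Ddx10.

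The clock and splicing lists lay below their sums at the median. Most other lists with a called fall did not, among them the endothelial list, at -0.07 combined and -0.09 for the sums. The clock list had a median of -0.14 with exhaust, -0.09 with OVA, -0.21 for the sums and -0.66 for the combined effect. Of its 13 departures 12 lay below 0 (49.8% of all genes did). Both lists are described here because their members fell. Low combined values enter the departure, so departures below 0 are partly built in and the count is no test. Per1 was at 0.11 with exhaust and -0.51 with OVA and departed by -0.63 ± 0.22 (limma adjusted p = 0.602). Hlf departed by -0.85 ± 0.29 (adjusted p = 0.576), Nr1d1 by -1.01 ± 0.58 (adjusted p = 0.884) and Cry2 by 0.00 ± 0.27. Splicing genes had a median of -0.05 with exhaust, -0.21 with OVA, -0.24 for the sums and -0.39 combined. Sfpq was at 0.17 and -1.30, and departed by -1.15 ± 0.53, Fubp1 by -1.54 ± 0.40 and Malat1 by -1.46 ± 0.37 (adjusted p = 0.81, 0.372 and 0.363). Neat1, by contrast, had a sum of -1.12 ± 0.28 close to its combined -1.40 ± 0.16. Among the rising genes Gstt1 departed upward, by 0.70 ± 0.22 (adjusted p = 0.512). The second probe sets of Fubp1 and Hlf departed by 0.27 and -0.07. No departure in this paragraph was called, so none is shown to differ from the sum.

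**Figure D5:**
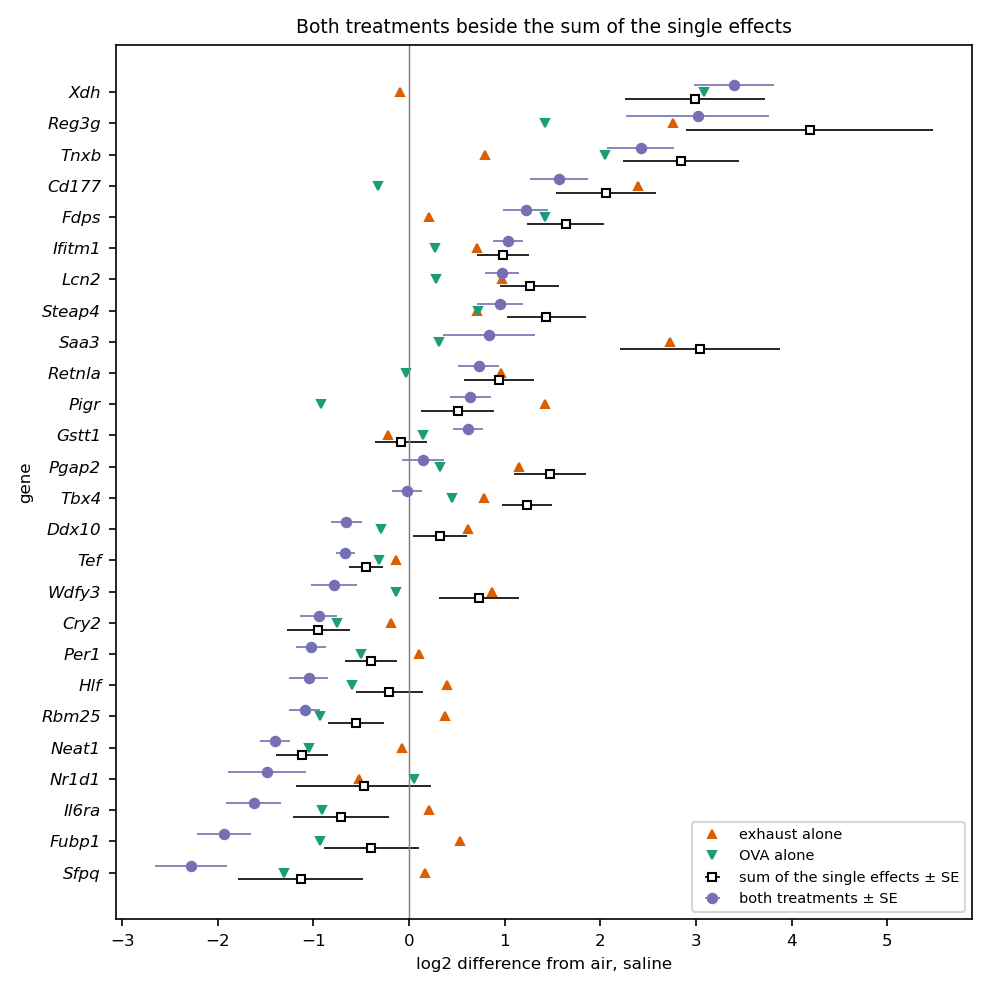
Effects of 26 genes in log2 units against the doubly untreated arrays: exhaust alone, OVA alone, the sum of both ± SE and the combined treatment ± SE. Saa3, Tbx4 and Pgap2 lie below their sums, and Xdh, Cd177 and Ifitm1 lie within the error of theirs.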

How the data were processed

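Lung RNA of 24 samples, 6 groups of 4, was hybridised to 1 Affymetrix MOE430A array each, per the labels' protocols. The values are deposited probe set intensities, linear MAS5 signals made by the authors, per the submitters' processing notes; the software's version and its scaling target are not given in the sources used here. Log2 was taken of the intensities as deposited, with no pseudocount. Of 22626 probe sets left after control probe sets were removed, 20380 name 1 gene, 691 several and 1555 none in GEO's platform annotation, and genes were named only from those with 1. The 13575 probe sets with a mean log2 signal above the 40th percentile were tested (8315 genes, each by its brightest probe set). limma 3.58.1 in R 4.3.3 fitted all 24 arrays with a mean per group, moderated with a trend, and p-values were adjusted by Benjamini-Hochberg. Every adjusted p in the text comes from this limma fit or a named alternative. Array quality was compared by exact permutation tests. Figures were drawn with Python 3.11.15, pandas 2.3.3 and matplotlib 3.10.9. The fit was tested on simulated data. Arrays carry no counts, and their number limits the precision.

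The genes named were the 10 largest rises and falls without overlap that were also called with the 3'/5' covariate, the 5 each that were not, the 5 smallest p for the departure, up to 4 members of each list with the smallest p, and a fixed set of defence, oxidant, clock and mucus genes. List members beyond these were named after their values were seen. The members and lists were chosen with earlier results of these data known. Alternatives changed the scaling, filter, pseudocount, weights, trend, samples and covariates. The fit with the 3'/5' covariate and without the fourth doubly treated array was added after the data were seen.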

Additional observations from a re-analysis of the deposited data

Results flagged for a closer look

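Within each group of 4 arrays, 1 array stood far from the other 3 (by Dixon's gap test at 95%) in 23 of 214 groups of values tested, where chance flags about 1 in 20. The fourth doubly treated replicate accounts for 8 of them. Its log2 3'/5' ratio was 2.09 for Gapdh against -0.49 to -0.21 in the other 3 arrays and 1.95 for actin against 0.23 to 0.44, and its log2 B1 signal was 12.43 against 10.85 to 11.06. Its signal was higher for Cry2 (470.1 against 260.3 to 283) and Mt2 (1658 against 923.6 to 983.5). It was lower for Idh3a (822.6 against 1220 to 1280), Psmc5 (677.6 against 1046 to 1105) and Hmox1 (29.3 against 181.5 to 218.4).

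The third doubly treated replicate was low for Tprkb (38.9 against 187.1 to 223.6), the complement gene Hc (2596.5 against 3565 to 3779) and Jchain (444.9 against 665.8 to 708.1), and high for Gsr (752.5 against 660.6 to 671.3) and Nsdhl (1028 against 748.5 to 789). The first was low for Txn1 (6689 against 7724 to 7825) and the second for Smtn (362.7 against 473.3 to 497.8). Among the doubly untreated arrays the third was low for Dld (91.1 against 199.2 to 211.3), Idh3a (452.2 against 628.4 to 650.6), Psmd12 (557.2 against 726.5 to 750.9) and Zfp109 (96.1 against 141.7 to 145.8), and high for Vwf (4065 against 3020 to 3056). The fourth was low for Dennd1a (167.5 against 245.6 to 257.3) and high for Hlf (1301 against 795.6 to 813.5), and the first was low for Xbp1 (4464 against 5081 to 5168).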

How the results depend on the processing

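The combined effect gave 1547 called probe sets and 1297 to 2145 with quantile or median scaling, other filters, a pseudocount of 50, array weights, no trend, the 3'/5' covariate or the replicate block. It gave 966 with the B1 covariate, 23 with both covariates and 463 when only the groups compared were fitted, of which 263 and 17 were shared for the covariate fits. With 1 probe set per gene it gave 1032 of 8315, and with the 3'/5' covariate and without the fourth doubly treated array 1246. Leaving out 1 array gave 805 to 2677. Of 83 called genes followed through the alternatives, 83 lost their call or their sign with both covariates, 59 with B1, 28 with the 3'/5' ratio, 41 with only the groups compared, 11 with median scaling and 4 with quantile scaling. Among them, 10 rises and 10 falls were named because they were also called with the 3'/5' ratio, and 5 each because they were not. Their outcome in that fit was thus set by the choice. These genes were also chosen for groups without overlap, so the counts of calls kept and lost are no test of robustness. The loss of 1 array ended 28, 14, 30 and 13 calls for doubly untreated replicates 1 to 4 and 20, 29, 29 and 3 for doubly treated ones. The 18 that kept their call in every fit except that with both covariates were Xdh, Tnxb, Pigt, Lrp4, Cd177, Sfpq, Fubp1, Arhgap31, Leng8, Lcn2, Ifitm1, Ifitm2, Per1, Tef, Neat1, Rbm25, Srrm1 and Malat1. The departure from the sum, with 0 calls, gave 1 with array weights, with 1 probe set per gene and with the 3'/5' covariate, 2 with that covariate without the fourth doubly treated array and 181 with B1, and leaving out 1 array gave 0 to 64. Median scaling moved the median departure of all probe sets to 0.10.

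Signs turned mostly for genes near 0, and the cause was not tested. In the combined effect with the B1 covariate Itgb2 was at -0.18, Fth1 at -0.065, Myh7 at 0.0028, Dnajb4 at -0.012, Cyp1a1 at -0.33, Gclc at -0.35, Mt1 at 0.47, Mt2 at 0.22 and Muc5b at 0.25. With the 3'/5' covariate Cyp1a1 was at -0.012, Gclc at -0.086, Mt1 at 0.11 and Muc5b at 0.0090. With both covariates Ahi1 was at 0.017, Hp at -0.24, Cyp1a1 at -0.030, Gclc at -0.23, Jchain at 0.25 and Muc5b at 0.074. With the 3'/5' covariate and without the fourth doubly treated array Cyp1a1 was at -0.20 and Hmox1 at 0.35, and with array weights Hmox1 was at 0.23. Leaving out 1 array put Hp at -0.029 to 0.11, Hmox1 at -0.51 to 0.47, Gclc at -0.044 to 0.22, Mt1 at -0.44 to 0.0037 and Muc5b at -0.31 to 0.036. The departure from the sum of Pigr was -0.078 with array weights, -0.14 with both covariates, -0.10 with the 3'/5' covariate without the fourth doubly treated array and -0.089 to 0.27 leaving out 1 array, and that of Xdh was -0.50 with both covariates.

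Replicate numbers did not pair the samples: same-numbered arrays' deviations correlated at -0.22 to 0.19. With the replicate block the combined effect gave 1666 calls and the departure 0.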

Other observations

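Genes called with both quality covariates in the fit were chosen after their values were seen, and all 10 were lower in the doubly treated lungs. Notch1, the receptor of Notch signalling, was at -1.36 ± 0.28 with both covariates (limma adjusted p = 0.0436) and at -1.44 ± 0.17 without. Safb2, a nuclear scaffold protein that binds RNA, was at -1.31 ± 0.23 and -1.48 ± 0.25. The ubiquitin ligase Rnf6 was at -1.11 ± 0.22 and -0.82 ± 0.13, and the JNK scaffold Mapk8ip3 at -1.79 ± 0.37 and -1.42 ± 0.19. The groups did not overlap for any of these 4. Ushbp1, Sertad1, the small GTPase Rab24 and the microtubule protein Map1b were also called in both fits with separate groups. The LIM cofactor Ldb1 and the adhesion molecule Bcam were called with both covariates but not without them, at -1.59 ± 0.27 and -2.25 ± 0.43, against -0.77 ± 0.40 (limma adjusted p = 0.222) and -0.75 ± 0.33 (adjusted p = 0.147) without.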
